A study of Mus musculus with 16 samples.

Results

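Taar2, Taar3, Taar4, Taar5, Taar6 and Taar9 are the trace amine-associated receptor genes that do not belong to the expanded Taar7 and Taar8 subfamilies, apart from Taar1. They were chosen by gene symbol, and each was read by a single probe set, which gave 6 of the 19572 probe sets tested. Trace amine-associated receptors are G protein-coupled receptors for volatile amines. In the nose, all but Taar1 are expressed by a sparse set of olfactory sensory neurons (OSNs), most of them in the dorsal part of the olfactory epithelium, and an OSN chooses a single receptor gene from the Taar or the odorant receptor repertoire. These neurons use the same cascade as other OSNs, with the G protein subunit encoded by Gnal, adenylyl cyclase 3 and a cyclic nucleotide-gated channel. Taar3 is known to respond to isoamylamine, Taar4 to 2-phenylethylamine and Taar5 to trimethylamine.

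The study asked which receptor mRNAs are found in active OSNs after exposure to citrus accord, a perfumery mixture used at 100%. All mice carried the S100a5-tauGFP reporter, in which the S100a5 gene, expressed by OSNs in step with their activity, drives a green fluorescent protein. The labels do not state the zygosity or the background strain. A total of 24 male and female mice aged 7 to 12 weeks stayed 1 per chamber for 40 h in clean air flowing at 3.1 L/min, and from 26 h on received a 10 s pulse every 20 min of either citrus accord or vehicle, which was filtered air. Dissociated olfactory mucosa was sorted into reporter-positive (GFP+) and reporter-negative (GFP-) cells, each array holding RNA of cells from 3 mice, so that 16 Clariom S arrays formed 4 groups with n = 4: vehicle GFP+, vehicle GFP-, citrus GFP+ and citrus GFP-. The GFP- sample is every cell without reporter, OSN or not, and the reporter marks activity and not receptor identity. Levels below are deposited log2 expression values, which are set across groups within a gene and never between genes. In sorted bulk RNA, fewer cells that express a receptor and less of its mRNA per cell cannot be told apart.

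The 6 genes lie in 1 cluster on chromosome 10, and the first bases from the annotated start are shown for the members that have them. Positions and sequences are those of RefSeq on GRCm38.p6, whose promoter table held 5 of the 6 members. The order along the chromosome was Taar1, Taar2, Taar3, Taar4, Taar5, Taar6, the 5 Taar7 genes, the 3 Taar8 genes and Taar9. Taar2 spans chr10:23938572-23941583, or 3012 bases, and its coding sequence is split by an intron. The other members are compact genes of 1014 to 1047 bases, with Taar3 at chr10:23949558-23950589, Taar4 at chr10:23960494-23961537, Taar5 at chr10:23970706-23971719, Taar6 at chr10:23984609-23985646 and Taar9 at chr10:24108488-24109534. The first 50 bases from the annotated start of each available member are given 5′ to 3′ on the gene's own strand, with the ATG in capitals.
Taar2 (chr10:23938572-23938621, + strand): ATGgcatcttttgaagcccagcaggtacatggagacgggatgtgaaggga
Taar3 (chr10:23949558-23949607, + strand): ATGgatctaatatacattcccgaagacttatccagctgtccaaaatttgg
Taar5 (chr10:23970706-23970755, + strand): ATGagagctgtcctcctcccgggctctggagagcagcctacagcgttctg
Taar6 (chr10:23985597-23985646, - strand): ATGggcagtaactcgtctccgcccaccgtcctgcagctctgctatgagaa
Taar9 (chr10:24109485-24109534, - strand): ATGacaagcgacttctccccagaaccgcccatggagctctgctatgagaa
Taar6 and Taar9 had 32 of 50 bases in common position by position (64.0%), including the run at the end of the window. Taar2 was closest to Taar7a (19 of 50 bases, 38.0%), Taar5 also to Taar7a (18 of 50, 36.0%) and Taar3 to Taar5 (16 of 50, 32.0%). The printed Taar2 bases reach a tga in frame, so they are not all coding, which limits the Taar2 count. For these 3 the least like Taar gene still shared 12 (Taar2), 13 (Taar5) and 11 (Taar3) of 50 bases, so the closest counts say little about likeness. By the same count, the Taar7 genes shared from 31 of 50 bases (62.0%, Taar7a with Taar7e) to 49 of 50 (98.0%, Taar7d with Taar7e) with their closest gene. The sequences of the array probes were not used here, and cross-hybridisation was not tested.

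The 300 bases around each start (250 before and 50 after) were searched on both strands for 3 words, TAATTA and TAATTG, which resemble the core bound by homeodomain proteins such as Lhx2, and CCCNNGGG, which resembles the site of the OSN factors Ebf1 to Ebf4. In all 11 Taar windows the annotated start was an ATG, so the bases before it precede a coding start and need not be the promoter. Whether the other windows start alike was not examined, so the shares are not a matched comparison. TAATTG was in 2 of the 5 member windows, Taar6 and Taar9, against 8.0% of all 32851 windows in the table and 23.2% of 948 odorant receptor (Olfr) windows. TAATTA was in 0 of 5 member windows (5.3% of all windows, 18.6% of Olfr windows), and CCCNNGGG in 0 of 5 (13.7% and 3.1%). Both matches read CAATTA on the strand of the gene, with the 6 letters in capitals.
Taar6 (chr10:23985666-23985695, - strand): gagaaccgaattCAATTAcaggacttctgc
Taar9 (chr10:24109538-24109567, - strand): ctgggaagtttaCAATTAccaagactggag
The Taar6 match began 37 bases before the start and the Taar9 match 21 bases before it. These are matches of letters and not shown to be binding sites, and their part in the gate differences was not tested.

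Array quality and the gate were as follows. Log2 values correlated at 0.985 to 0.992 between arrays of a group and at 0.934 to 0.965 across gates. Negative-control probe sets had a median of 4.84 to 5.37 and a 95th percentile of 8.75 to 9.71 per array. S100a5 was higher in GFP+ cells in each of the 8 pools, by 1.67 to 2.16 log2 units. Omp, a marker of mature OSNs, was between 18.83 and 19.42 on all 16 arrays. It was higher in GFP+ cells in 7 of 8 pools (-0.03 to 0.54). At a limma adjusted p under 0.05, 9.05% of all probe sets were higher in GFP+ cells and 9.97% lower in vehicle. In citrus these shares were 7.44% and 10.8%. Of 15 markers of mature OSNs, 3 were higher and 1 lower in both stimuli, with median differences of 0.26 in vehicle and 0.25 in citrus. The lower one was Calb2 (-4.38 in vehicle and -4.60 in citrus). Equal mature OSN content between the gates is therefore not shown. Markers of other cells moved with the gate as well. All 13 measured of 15 myeloid and lymphoid markers were lower in GFP+ cells in both stimuli (median difference -6.38 in vehicle and -6.56 in citrus), with a mean level of 11.54 to 13.35 in GFP- and 5.34 to 6.05 in GFP+ samples, close to the median of the negative controls. Of 10 markers of immature OSNs, 7 were lower in vehicle and 6 in citrus (mean level 11.52 to 12.13 in GFP- and 9.62 to 10.00 in GFP+), and 4 of 5 measured progenitor markers were lower in both. Of 8 markers of sustentacular cells, the supporting cells of the epithelium, 1 was lower in vehicle and 2 in citrus (3 and 6 with the replicate block), with median differences of -0.83 and -1.47. Their mean level was 6.82 to 10.26 in GFP- and 7.11 to 8.80 in GFP+ samples, and it was lower in GFP+ cells in every pool except vehicle replicate 1 (7.11 against 6.82 in GFP-).

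Between the gates, Taar3, Taar4 and Taar9 were higher in GFP+ cells and Taar2 was lower, under vehicle and under citrus alike. Taar5, at the lowest values, was higher in GFP+ cells in vehicle only at the edge of the threshold, and Taar6 did not pass in either stimulus. At a limma adjusted p under 0.05, 4 of 6 members were higher and 1 lower in vehicle, against a background of 9.05% higher and 9.97% lower over the whole table. In citrus, 3 of 6 were higher and 1 lower, against 7.44% and 10.8% of all probe sets. The median difference of the members (GFP+ minus GFP-) was 1.32 in vehicle and 1.49 in citrus, and that of all probe sets 0.11 and 0.13. The myeloid, immature neuron, progenitor and sustentacular markers moved with the same gate, and their part in the member differences was not tested.

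**Figure D1:**
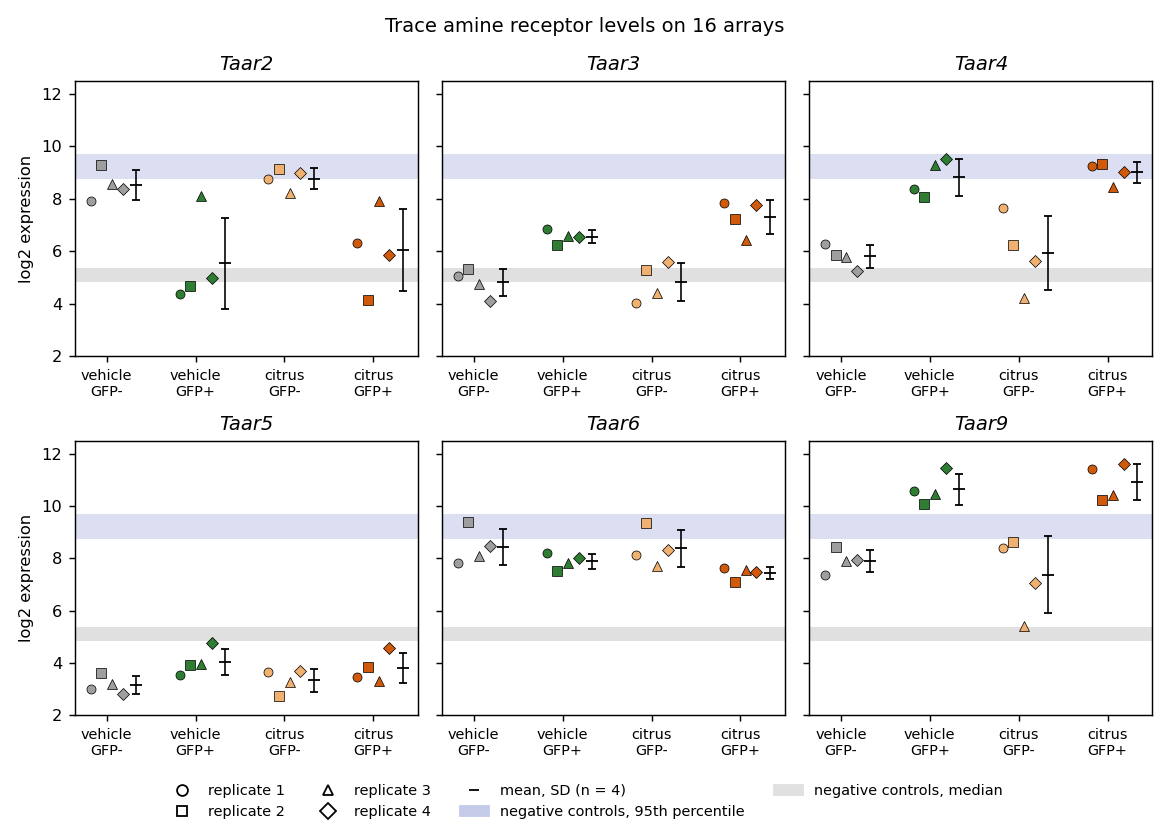
Log2 expression of the 6 receptors (1 panel each) on the 16 arrays by group, with 1 symbol per replicate pool and the group mean with its SD (n = 4) beside the points. The shaded bands are the range over arrays of the negative controls' median (grey) and 95th percentile (blue). Taar9 in GFP+ cells is the only receptor and gate above the whole blue band on all arrays, and Taar5 lies under the grey band on every array.

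Taar9, one of the receptors of the cluster's far end, was the most clearly measured member. In vehicle, its levels in replicates 1 to 4 were 10.58, 10.07, 10.45 and 11.44 in GFP+ cells and 7.37, 8.43, 7.89 and 7.93 in GFP- cells. In citrus, they were 11.40, 10.23, 10.43 and 11.62 in GFP+ cells and 8.38, 8.63, 5.41 and 7.07 in GFP- cells. Every GFP+ value was above every GFP- value, and all 8 GFP+ values and none of the 8 GFP- values exceeded the 95th percentile of that array's negative controls. The difference was 2.73 ± 0.54 (SE, adjusted p = 0.00132, limma) in vehicle and 3.54 ± 0.54 (adjusted p = 8.85e-05) in citrus. With the negative controls' 95th percentile set in place of the GFP- values, the mean GFP+ level was 2.56-fold higher in vehicle and 3.93-fold higher in citrus. These folds have no interval and are on the deposited scale, which the processing can stretch. They are therefore not bounds on the fold in RNA. The group means (± SD, n = 4) ran from citrus GFP+ (10.92 ± 0.69) and vehicle GFP+ (10.64 ± 0.58) to vehicle GFP- (7.91 ± 0.43) and citrus GFP- (7.37 ± 1.47). Neighbours of the same gate in this order did not differ beyond their spread.

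Taar4, the receptor for the aversive amine 2-phenylethylamine, was higher in GFP+ cells by a similar log2 amount. Vehicle values in replicates 1 to 4 were 8.38, 8.09, 9.29 and 9.52 in GFP+ cells and 6.29, 5.87, 5.79 and 5.25 in GFP- cells. Citrus values were 9.25, 9.33, 8.45 and 9.04 in GFP+ cells and 7.65, 6.25, 4.22 and 5.64 in GFP- cells. The gates did not overlap in either stimulus, and the spread was widest among the citrus GFP- samples. The difference was 3.02 ± 0.51 (adjusted p = 0.000321) in vehicle and 3.08 ± 0.51 (adjusted p = 0.000221) in citrus. Only 3 arrays, 1 of vehicle GFP+ and 2 of citrus GFP+, were above the 95th percentile of their negative controls, so no fold is given. In the order of group means, citrus GFP+ (9.02 ± 0.40) stood next to vehicle GFP+ (8.82 ± 0.69), and citrus GFP- (5.94 ± 1.42) next to vehicle GFP- (5.80 ± 0.43), each pair within its spread.

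Taar3, the isoamylamine receptor, was the third member higher in GFP+ cells in both stimuli. Its vehicle levels were 6.83, 6.25, 6.60 and 6.55 in GFP+ cells and 5.06, 5.31, 4.75 and 4.11 in GFP- cells. Citrus levels were 7.84, 7.25, 6.43 and 7.75 in GFP+ cells and 4.02, 5.26, 4.40 and 5.58 in GFP- cells. The gates were again fully apart, although no array exceeded the negative controls' 95th percentile. GFP+ exceeded GFP- by 1.75 ± 0.35 (adjusted p = 0.00155) in vehicle and by 2.50 ± 0.35 (adjusted p = 3.72e-05) in citrus. The GFP- means, 4.81 ± 0.52 in vehicle and 4.82 ± 0.73 in citrus, lay under the lowest array median of the negative controls (4.84). The GFP+ mean was 6.56 ± 0.24 in vehicle and 7.32 ± 0.65 in citrus.

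These 3 were also the members whose groups were fully separated upwards: 3 of 6 in vehicle (10.9% of all probe sets) and 3 of 6 in citrus (11.7%). Each stayed past the threshold in every alternative in which it was tested. Leaving out 1 pool at a time, the Taar9 difference ranged from 2.47 to 3.10 in vehicle and from 3.05 to 4.19 in citrus, Taar4 from 2.60 to 3.33 and from 2.70 to 3.57, and Taar3 from 1.52 to 2.02 and from 2.07 to 2.68.

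Taar5, the trimethylamine receptor, was under the median of the negative controls on all 16 arrays. Vehicle values were 3.54, 3.93, 3.95 and 4.75 in GFP+ cells and 3.02, 3.64, 3.19 and 2.81 in GFP- cells. Citrus values were 3.48, 3.84, 3.33 and 4.59 in GFP+ cells and 3.68, 2.74, 3.27 and 3.68 in GFP- cells. The gates overlapped in both stimuli. GFP+ minus GFP- was 0.88 ± 0.30 (adjusted p = 0.0488) in vehicle and 0.47 ± 0.30 (adjusted p = 0.313) in citrus. The vehicle call was lost when any 1 vehicle pool was left out (differences of 0.53 to 1.08, adjusted p = 0.0584 to 0.325), and after centring each array on its receptor median the difference was 0.43 in vehicle (adjusted p = 0.377) and -0.28 in citrus. It was also lost after centring on mature OSN markers, with quantile normalization, with all probe sets tested, with array weights, and without citrus replicate 1 or 3. The other alternatives that tested Taar5 with all vehicle pools kept it. Centring on the median of tested probe sets called Taar5 higher in citrus too.

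Taar2 went the other way. In GFP- cells its levels were 7.93, 9.30, 8.56 and 8.36 in vehicle and 8.75, 9.13, 8.23 and 8.99 in citrus. In GFP+ cells they were 4.37, 4.68, 8.09 and 4.98 in vehicle and 6.29, 4.13, 7.92 and 5.87 in citrus. GFP- values stayed within 7.93 to 9.30, whereas GFP+ values spread over 4.13 to 8.09 with replicate 3 high in both stimuli, and in vehicle that array overlapped the GFP- samples. The difference was -3.00 ± 0.73 (adjusted p = 0.00687) in vehicle and -2.72 ± 0.73 (adjusted p = 0.0128) in citrus. Leaving out vehicle replicate 2 ended the call in vehicle (-2.47, adjusted p = 0.076), and leaving out citrus replicate 2 (-1.96, adjusted p = 0.107) or citrus replicate 4 (-2.58, adjusted p = 0.075) ended it in citrus. The group means were 8.77 ± 0.40 in citrus GFP-, 8.54 ± 0.57 in vehicle GFP-, 6.05 ± 1.56 in citrus GFP+ and 5.53 ± 1.73 in vehicle GFP+. The negative controls' 95th percentile was exceeded on 2 arrays, both GFP-.

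Taar6 had its lower values in GFP+ cells too, by less. Its vehicle levels were 8.20, 7.53, 7.81 and 8.02 in GFP+ cells and 7.81, 9.38, 8.10 and 8.49 in GFP- cells. Citrus levels were 7.62, 7.10, 7.57 and 7.50 in GFP+ cells and 8.13, 9.36, 7.72 and 8.31 in GFP- cells. The gates overlapped in vehicle and were separate in citrus, where Taar6 and Taar2 were the 2 of 6 members fully separated downwards (11.0% of all probe sets; 0 of 6 in vehicle, 9.96%). The difference was -0.55 ± 0.33 (adjusted p = 0.269) in vehicle and -0.93 ± 0.33 (adjusted p = 0.058) in citrus. Only 2 arrays, both GFP-, exceeded the negative controls' 95th percentile. The Taar6 difference passed in both stimuli after receptor-median centring (-1.01, adjusted p = 0.0484, and -1.68, adjusted p = 0.000846), and in citrus also with array weights (adjusted p = 0.0424), without citrus replicate 3 (-1.19, adjusted p = 0.0407) and without vehicle replicate 2 (adjusted p = 0.0296). All 4 groups were within 1.00 log2 units of each other, from 8.44 ± 0.68 in vehicle GFP- to 7.45 ± 0.23 in citrus GFP+.

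**Figure D2:**
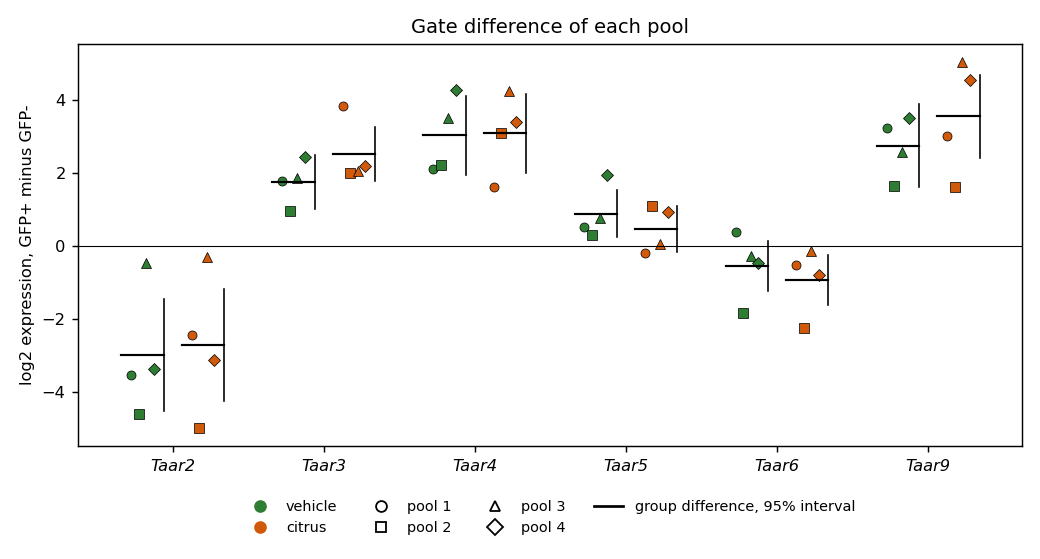
GFP+ minus GFP- level (log2) of each replicate pool for the 6 receptors, vehicle in green and citrus in orange, with 1 symbol per pool. Horizontal lines are the group differences and vertical lines their 95% intervals from limma. All 8 pools lie above 0 for Taar3, Taar4 and Taar9 and below 0 for Taar2.

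GFP+ and GFP- arrays of one number were taken as the same pool of mice, so that the difference could be read in each of the 8 pools. Taar9 was higher in GFP+ cells in 8 of 8 pools, by 1.60 to 5.02. Taar4 and Taar3 were higher in 8 of 8 as well, by 1.60 to 4.27 and by 0.94 to 3.82. Taar5 was higher in 7 of 8 pools (-0.19 to 1.95). Taar2 was lower in 8 of 8 pools, but by as little as -0.31 and as much as -4.99, and Taar6 was lower in 7 of 8 (-2.26 to 0.39). The pool with the smallest Taar9 difference was number 2 in both stimuli (1.63 in vehicle and 1.60 in citrus), and that same number held the largest Taar2 and Taar6 differences (-4.62 and -1.84 in vehicle, -4.99 and -2.26 in citrus). Vehicle and citrus pools of one number were different mice.

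**Figure D3:**
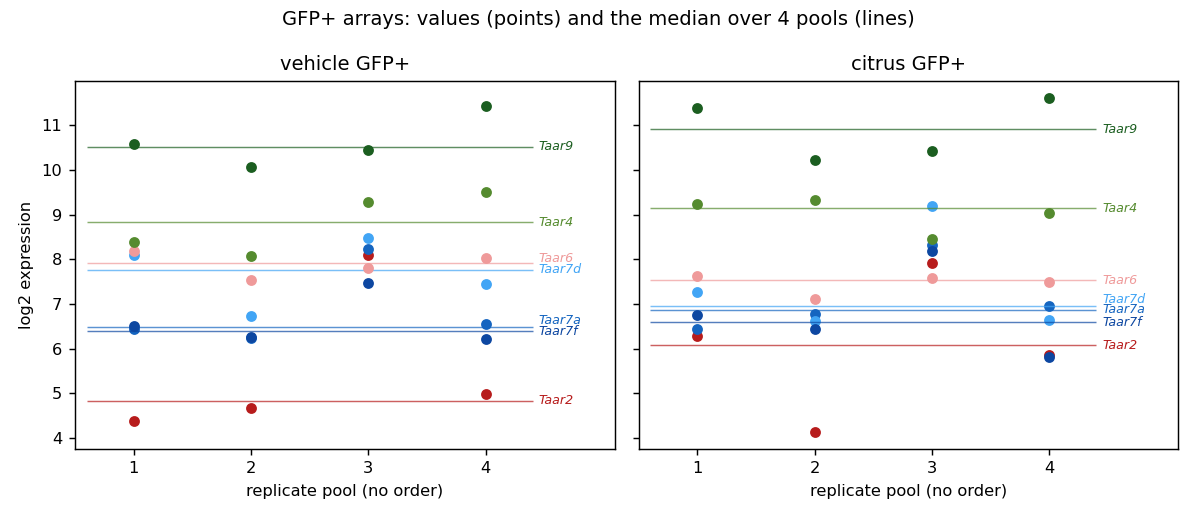
Log2 levels on the 4 GFP+ arrays of vehicle (left) and citrus (right) for 4 members and for Taar7a, Taar7d and Taar7f, with points for the replicate pools and lines at the median over the 4 pools. Replicate 3 has the highest Taar2, Taar7a, Taar7d and Taar7f values in both panels, while Taar6 and Taar9 lie there within the range of the other replicates. Taar4 is lowest there in citrus and within the range in vehicle.

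The GFP+ arrays of replicate 3 had the highest Taar2 level in both stimuli. The level was 8.09 in vehicle, where the other 3 were 4.37 to 4.98, and 7.92 in citrus, where they were 4.13 to 6.29. In the same 2 samples Taar7a reached 8.23 and 8.32, Taar7d 8.48 and 9.19 and Taar7f 7.46 and 8.19, each the highest of its group. For Taar9, replicate 3 was 10.45 and 10.43, inside the range of the others. Taar7b was lowest there in both stimuli, at 8.83 (10.35 to 10.65 in the others) and 9.39 (10.06 to 10.65). Taar4 and Taar3 were lowest there in citrus (8.45 and 6.43) and inside the range of the others in vehicle (9.29 and 6.60). Over the 223 Olfr probe sets called lower in GFP+ cells in vehicle, replicate 3 of citrus GFP+ was higher than the other 3 arrays by a median of 0.48, with 162 of them above the mean of the others. Over the 214 called lower in citrus, replicate 3 of vehicle GFP+ was higher by 0.31 (128 above), while replicate 1 lay farther off in the other direction, at -0.40 (62 above). Over the Olfr probe sets called higher in the other stimulus, replicate 3 was lower, by a median of -0.22 in vehicle GFP+ and -0.32 in citrus GFP+. Markers of cell type and zone moved on the same 2 arrays. The mean of the 3 dorsal markers was 11.82 in vehicle GFP+ replicate 3 (11.17 to 11.65 in the others) and 11.79 in citrus GFP+ replicate 3 (11.24 to 11.34). The mean of the 8 sustentacular markers was also highest there, at 8.69 (7.11 to 8.50 in the others) and 8.80 (7.42 to 8.25). The part of these markers in the Taar2 levels was not tested. Without this replicate in both stimuli, a choice made after seeing the data, the Taar2 difference was -3.85 in vehicle (adjusted p = 5.28e-05) and -3.52 in citrus (adjusted p = 0.000104), and that of Taar5 in vehicle 0.92 (adjusted p = 0.126). The other member calls kept their side of the threshold without it.

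**Figure D4:**
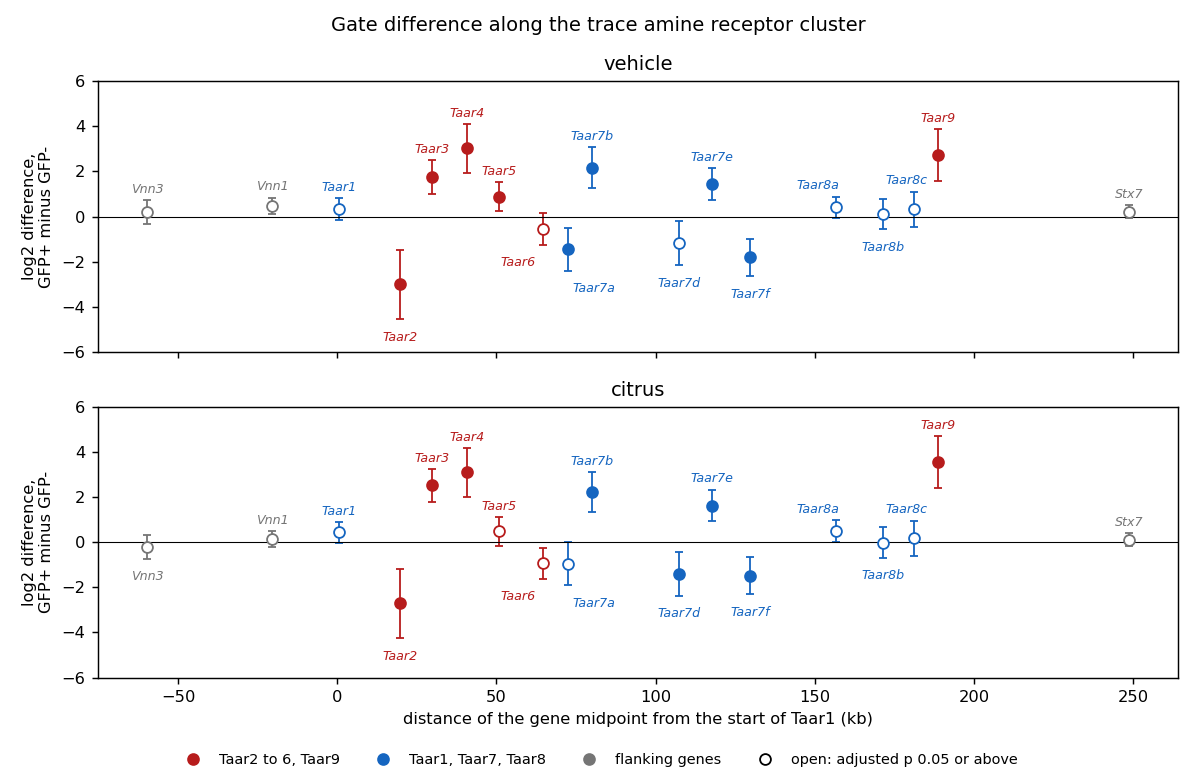
GFP+ minus GFP- difference (log2, with the 95% interval from limma) of the 15 Taar genes and 3 neighbours against the distance of the gene's midpoint from the start of Taar1 in kb, for vehicle (top) and citrus (bottom). Filled points have an adjusted p under 0.05. Genes higher and lower in GFP+ cells are interleaved along the cluster, and Taar1, the Taar8 genes, Vnn1, Vnn3 and Stx7 are all open points near 0.

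Along the cluster the sign of the difference did not follow position. Taar2 (-3.00 in vehicle) was next to Taar3 and Taar4 (1.75 and 3.02), and Taar6 (-0.55) lay between Taar5 and Taar7a. Of the 9 other Taar genes, 2 were higher and 2 lower in GFP+ cells in each stimulus (22.2% each way), with medians of 0.32 and 0.16. Of all probe sets, 9.05% were higher and 9.97% lower in vehicle, and 7.44% and 10.8% in citrus. Taar7b (2.17 ± 0.42, adjusted p = 0.00121, in vehicle and 2.20 ± 0.42, adjusted p = 0.000882, in citrus) and Taar7e (1.45 and 1.62) were higher, whereas Taar7f was lower (-1.81 ± 0.39, adjusted p = 0.00275, and -1.49 ± 0.39, adjusted p = 0.0106). The fourth was Taar7a in vehicle (-1.45, adjusted p = 0.0312) and Taar7d in citrus (-1.40, adjusted p = 0.0431). Taar1, which is expressed in the brain and not by OSNs, was under the negative controls' median on every array. Of the 6 nearest genes outside the cluster, Moxd1, a relative of dopamine beta-hydroxylase, was lower in GFP+ cells in both stimuli (-1.30 and -2.00), Ccn2, a matricellular protein gene, in citrus (-0.79, adjusted p = 0.0101), and none was higher. Lower genes thus made up 16.7% of the 6 in vehicle and 33.3% in citrus, against 9.97% and 10.8% of all probe sets.

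The Olfr genes give the scale of the member differences. In vehicle, GFP+ cells had more of 424 (38.9%) and less of 223 (20.4%) among 1091 Olfr probe sets, with a median difference of 0.57, and 464 (42.5%) and 214 (19.6%) in citrus, with a median of 0.73. The shares of all probe sets were 9.05% and 9.97% in vehicle, and 7.44% and 10.8% in citrus. The Taar4 difference was above that of 91.0% of Olfr probe sets in vehicle and 89.7% in citrus, and the Taar9 difference above 88.6% and 94.3%. Taar3 was above 72.6% and 82.9%, Taar5 above 57.5% and 44.3%, Taar6 above 27.6% and 21.7%, and Taar2 above only 10.6% and 11.5%. These places are a description without a test.

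Other genes of OSNs are given by list. Of all probe sets, 9.05% were higher and 9.97% lower in vehicle, and 7.44% and 10.8% in citrus. The GFP- samples also held myeloid, immature neuron and supporting cell RNA, whose part in these counts was not tested. Of 18 genes of olfactory transduction and receptor transport, 4 were higher and 0 lower in vehicle, and 6 higher and 0 lower in citrus, with medians of 0.27 and 0.40. Pde1c, a ciliary phosphodiesterase, was higher by 0.95 in both, and Ano2, the calcium-activated chloride channel of OSN cilia, by 0.64 ± 0.13 and 0.72 ± 0.13. Rtp2, which helps receptors reach the cell surface, was higher in vehicle (0.75 ± 0.17, adjusted p = 0.00437), and Gng13, a G protein gamma subunit, in citrus (0.61 ± 0.16, adjusted p = 0.0126). Among 13 regulators of receptor choice and OSN identity, 0 were higher, 1 was lower in vehicle (7.69%) and 2 in citrus (15.4%). These counts are near the shares of all probe sets, and the medians were -0.04 and 0.10. The lower ones were Lbr, the lamin B receptor, whose loss accompanies the gathering of receptor gene clusters in the OSN nucleus (-1.63 and -1.90), and Cbx5, a heterochromatin protein (-0.65 in citrus). Of 3 markers of the dorsal zone, where most Taar neurons lie, 0 passed in either stimulus, with medians of 0.39 and 0.09. Centring on the median of tested probe sets called all 3 higher in vehicle, where 7080 of all probe sets were higher, and the replicate block called 1. Receptor-median centring called 1 lower in citrus. On each array 2 of the 3 exceeded the negative controls' 95th percentile, and equal dorsal content of the gates is not shown. Of 4 ventral markers, Nfia was lower in vehicle (-0.87) and Ncam2 higher in citrus (0.55). Of 13 measured of 14 genes linked to OSN activity, 10 were higher and 1 lower in vehicle, and 9 and 1 in citrus (medians of 1.38 and 1.61). Fxyd2 (3.15 and 3.58), Pcp4l1 (2.37 and 2.50) and Lrrc3b (2.05 and 2.13) were foremost. This list holds S100a5, the gene that drives the sorting reporter, and was chosen with earlier results of these data known. Its counts are therefore not an independent result about the gate.

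**Figure D5:**
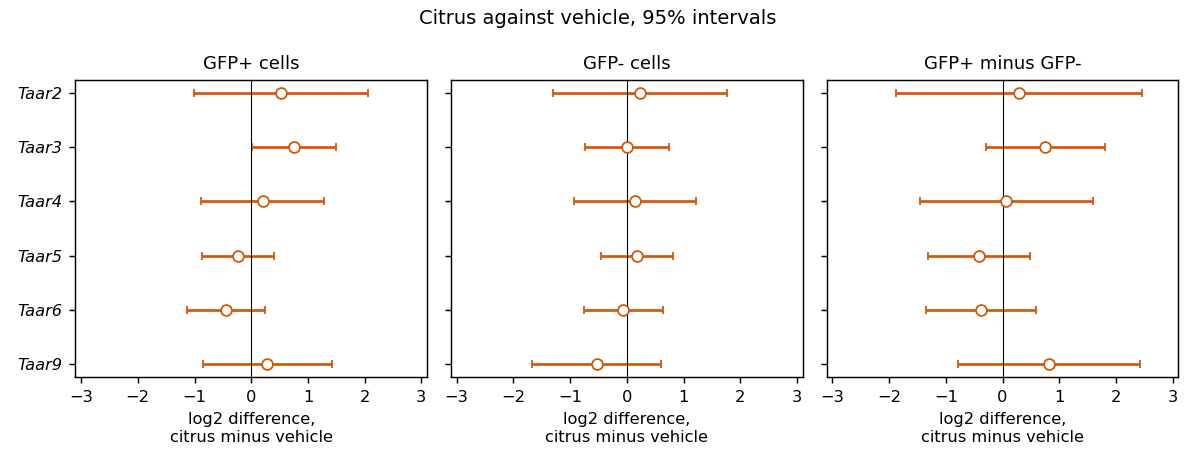
Citrus minus vehicle difference (log2) of the 6 receptors in GFP+ cells (left), in GFP- cells (middle) and in the GFP+ minus GFP- difference (right), with 95% intervals from limma. Open points mark an adjusted p of 0.05 or above, which holds for all 18 estimates. The only interval that does not include 0 is that of Taar3 in GFP+ cells.

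Citrus accord changed none of the 6 receptors past the threshold in GFP+ cells. This comparison sets receptor mRNA in the sorted GFP+ cells of citrus against that of vehicle and does not count neurons. With limma, 0 of 6 passed (0.0204% of all probe sets did) and 1 of 6 had an unadjusted p under 0.05 (4.06% of all probe sets), and 0 of 6 had groups without overlap (2.72%). That one was Taar3, at 7.84, 7.25, 6.43 and 7.75 in citrus GFP+ and 6.83, 6.25, 6.60 and 6.55 in vehicle GFP+ cells. Of these citrus samples, 3 were above all vehicle samples and replicate 3 was below most of them. The difference was 0.76 ± 0.35 (95% interval 0.02 to 1.50, unadjusted p = 0.0448, adjusted p = 0.999), and 1.05 without citrus replicate 3 (adjusted p = 0.997).

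The intervals of the other members show what sizes these arrays leave within reach. In GFP+ cells the citrus minus vehicle difference was 0.52 (-1.01 to 2.05) for Taar2, whose GFP+ samples varied most. It was 0.20 (-0.88 to 1.28) for Taar4 and 0.28 (-0.85 to 1.42) for Taar9. Taar5 had -0.23 (-0.87 to 0.40) and Taar6 -0.44 (-1.13 to 0.25). The intervals of Taar4 and Taar9 thus reach past 1 log2 unit upwards, and an absence of change is not shown. For S100a5 the same comparison gave means of 17.43 ± 0.10 in citrus and 16.86 ± 0.16 in vehicle (n = 4). In GFP- cells its means were 15.55 ± 0.10 in citrus and 14.94 ± 0.13 in vehicle. It did not pass the threshold in either gate.

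In GFP- cells 0 of 6 members passed with limma (0.0153% of all probe sets), 0 had an unadjusted p under 0.05 (5.88%) and 0 had groups without overlap (2.83%). Taar9 had the largest estimate, -0.53 (-1.67 to 0.60), which turned to 0.12 without citrus replicate 3, the array with the lowest Taar9 value of all (5.41). Taar2 differed by 0.23 (-1.30 to 1.77), Taar5 by 0.18 (-0.45 to 0.81) and Taar4 by 0.14 (-0.94 to 1.22). For Taar3 (0.01, -0.73 to 0.75) and Taar6 (-0.06, -0.75 to 0.63) the means were nearly equal.

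The effect of citrus on the gate difference, which sets the GFP+ minus GFP- difference of citrus against that of vehicle, passed in 0 of 6 members with limma (0% of all probe sets). No member had an unadjusted p under 0.05 (0 of 6, 3.69% of all probe sets) and in 0 of 6 were the pools of the 2 stimuli apart (3.19%). The estimates were 0.81 (-0.79 to 2.42) for Taar9, 0.75 (-0.29 to 1.80) for Taar3 and 0.28 (-1.88 to 2.45) for Taar2. They were 0.06 (-1.46 to 1.59) for Taar4, -0.38 (-1.36 to 0.60) for Taar6 and -0.41 (-1.31 to 0.48) for Taar5. The larger Taar3 and Taar9 gate differences under citrus were therefore not beyond the spread between arrays within groups. With the replicate block, which pairs the gates, they were not called either. Within the Taar3 pools, citrus replicate 1 had 3.82 and the other 3 had 1.98 to 2.18, against 0.94 to 2.44 in vehicle.

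Among the members, the centred profiles of Taar4 and Taar9 over the 16 arrays were closest, with a root mean square distance of 0.62 log2 units, and those of Taar2 and Taar9 farthest apart, at 3.24. Taar3 was within 0.98 of Taar4 and 0.97 of Taar9, and Taar6 was nearer to Taar5 (0.96) than to Taar2 (1.50). Genes outside the 6 with the nearest profiles were sought among 6363 probe sets above the negative controls' 95th percentile on at least 4 arrays. They were Olfr1324 (0.50), Olfr167 (0.65) and Olfr749 (0.66) for Taar9, Olfr730 (0.56), Olfr502 (0.56) and Olfr125 (0.58) for Taar4, and Olfr1152 (0.41), Syngr1 (0.49) and Olfr198 (0.50) for Taar3. Of these 9 genes, 8 are odorant receptors on other chromosomes and Syngr1 encodes a synaptic vesicle protein. Taar2 was nearest to Olfr611 (0.58), Olfr672 (0.70) and Apoe (0.72), all on chromosome 7, and Apoe encodes apolipoprotein E. The nearest to Taar5 were 0610009B22Rik (0.31), Bcl2l2 (0.33) and Dpp7 (0.35), and to Taar6 Arhgef2 (0.34), Scnn1a (0.39) and Chd7 (0.40). These distances are small partly in proportion to how little a profile varies, with an SD over the arrays of 0.54 for Taar5 and 0.61 for Taar6 against 1.79 for Taar2, and all profiles share the same gates, pools and arrays.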

How the data were processed

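RNA of sorted cells was measured on 16 Clariom S mouse arrays, 4 per group, with groups taken from the labels. The values were used on the log2 scale on which the authors deposited them, for 28846 probe sets. The submitters' processing notes name Affymetrix Expression Console, with version and genome build not given in the sources used here. SST-RMA, which 1 label names, can stretch the scale. Every column matched 1 array and 0 other columns were present. Symbols came from the platform annotation: the 19572 with 1 symbol entered the tests, 2634 others had none here, and 6640 were controls, 5222 of them negative controls used as background. Matching to RefSeq changed 0 symbols.

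The tests used limma 3.58.1 under R 4.3.3 (1 mean per group, 1 spread per probe set over all arrays, two-sided), for 5 comparisons, with Benjamini-Hochberg adjustment over all tested probe sets and a threshold of 0.05. Errors beside differences are standard errors. P-values of this fit measure the spread between arrays within groups and do not use the pairing of GFP+ and GFP- arrays, which the replicate block does. Where a member was over the negative controls' 95th percentile on all arrays of 1 gate and none of the other, a fold against that percentile was given. Sequences and positions were read from RefSeq tables. Figures were drawn with matplotlib 3.10.9. The fit was tested on simulated data.

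The members and gene lists were chosen with earlier results of these data known. Named genes were the 6 members, S100a5 and Omp, the 3 nearest profiles per member, and up to 3 genes with the largest difference past the threshold per list. Further Taar and flanking genes past the threshold, the median profiles of replicate 3, and Taar1 were named after their values were seen. GFP+ and GFP- arrays of one number were taken as one pool, since 24 mice in pools of 3 give each pool both gates, though the labels do not state it. Their deviations from the group means correlated at 0.075 to 0.275, and each array correlated best with its own number in 8 of 8 cases per stimulus. Alternatives were other centrings, quantile normalization, filters, array weights, a trended prior, the groups compared alone, the replicate block, leaving out each pool, and, added after seeing the data, leaving out replicate 3. The labels give a replicate number and a code shared by all titles, and name no batch.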

Additional observations from a re-analysis of the deposited data

Results flagged for a closer look

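In 48 groups of 4 values examined, which included the members' levels and pool differences, 2 had a value far from the other 3, and chance flags about 1 in 20 such groups. The Taar2 level of vehicle GFP+ replicate 3 was 8.09, while the other 3 pools of that group were at 4.37 to 4.98. The Taar3 difference between GFP+ and GFP- cells in citrus replicate 1 was 3.82, while the other 3 citrus pools were at 1.98 to 2.18.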

How the results depend on the processing

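Taar3, Taar4 and Taar9 kept their direction and call between the gates in every alternative that tested them. Under the filter on background only Taar9 was tested, so 1 member passed in vehicle and 1 in citrus. Leaving out single pools gave 3 to 5 members called in vehicle, 3 without vehicle replicate 2. Centring on the receptor median moved the span of the group means to 1.82 for Taar3 (from 2.51) and 1.69 for Taar6 (from 1.00). Uncalled estimates changed sign as follows. With receptor centring, Taar5 between the gates in citrus was -0.28, Taar4 for citrus in GFP+ -0.039, and the effect on the gate difference -0.010 for Taar2 and -0.23 for Taar4 (-0.028 with quantile normalization). In GFP- cells the citrus effect on Taar3 was -0.046 with median centring and -0.0011 with quantile normalization, and on Taar4 -0.013 with array weights. Leaving out pools, the citrus effect in GFP- cells ranged from -0.25 to 0.27 for Taar3, -0.43 to 0.71 for Taar4, -0.39 to 0.25 for Taar6 and -0.95 to 0.12 for Taar9. In GFP+ cells it ranged from -0.10 to 1.37 for Taar2, -0.044 to 0.55 for Taar4 and -0.49 to 0.0017 for Taar5. On the gate difference it ranged from -0.52 to 1.13 for Taar2, -0.32 to 0.56 for Taar4 and -0.81 to 0.063 for Taar6. Median centring raised the median of all probe sets by 0.28 in vehicle and 0.33 in citrus, with 7080 higher and 1555 lower, and 9128 and 1711, against 1771 and 1952, and 1457 and 2112, as deposited. Receptor centring shifted it by -0.45 and -0.75 (393 and 3498, and 398 and 10102). Quantile normalization gave 2340 and 1984 in citrus. The background filter left 2012 and 1564 calls of 3723 and 3569, and leaving out vehicle replicate 2 or 4 left 2466 or 2369 in vehicle. In GFP+ cells citrus calls were 2 to 4 over the alternatives, in GFP- cells 2 to 3, and for the gate difference 0 to 1. With the replicate block the members called were 5 in vehicle (Taar5 adjusted p = 0.0461) and 4 in citrus, and no member call changed. Vehicle and citrus arrays share only a number: their deviations correlated at 0.07 to 0.33 in GFP+ and -0.01 to 0.35 in GFP- cells, with 6 of 8 arrays closest to their own number in each gate, and the block left 0 of 6 members called in GFP+ cells, in GFP- cells and for the gate difference. Arrays give no read depth. Signal over background limits every member except Taar9 in GFP+ cells: Taar2 and Taar6 exceeded the negative controls' 95th percentile on 2 arrays each, Taar4 on 3, and Taar3 and Taar5 on 0, and 4 arrays per group limit the precision.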
